A study of Mus musculus with 4 samples.

Results

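The zinc-finger loci Zscan26, Zkscan8, Zfp389, Zkscan5 and Zscan25 carried Cut&Run peaks of tagged Zfp574 at their promoters. The 5 members were chosen by measured values, since they were picked as genes with peaks, and their peaks were taken as all rows of the peak lists within 500 bp of any annotated transcription start site (TSS) of a member. This gave 9 of the 140 peaks of the merged list, which was called on both replicates together, 8 of the 80 peaks of replicate 1 and 9 of the 96 peaks of replicate 2. The members were 5 of the 134 genes with a merged peak, and no other gene had a TSS in the windows of their peaks. The presence and size of a peak at a member are therefore descriptions, and no test is read from them.

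Cut&Run releases DNA near a bound protein with an antibody-directed nuclease, and the released ends are then sequenced. An anti-V5 antibody was applied to 2 samples of AID-Zfp574 cells and 2 of their OsTir1 parental line, both diploid mouse embryonic stem cells (mESCs) derived from haploid cells and grown without feeders in serum and LIF. The AID-Zfp574 line was established from genotyped clones in which a cassette of Blasticidin resistance, P2A, V5 and AID (an auxin-inducible degron) was inserted at the N terminus of Zfp574. Both lines carry the transgene that expresses ARF16 and OsTiR1 from an EF1a promoter with an mCherry marker, and no auxin treatment is given for these samples. In the parental line Zfp574 lacks the V5 tag, and its reads were the background of every peak. Its own peak list was not analysed here, so the groups were compared only through that background.

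Proteins of the Zscan and Zkscan families bind DNA through arrays of zinc fingers. Zscan proteins add a SCAN domain, through which zinc-finger proteins pair with each other, and Zkscan proteins have both a SCAN domain and, in most cases, a KRAB domain, which recruits the corepressor Trim28. Genes of these families arose by duplication and lie in clusters, so that neighbours can have related sequence. Zfp574, the tagged protein, is a zinc-finger protein too.

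Zscan26 (ENSMUSG00000022228.14), Zfp389 (ENSMUSG00000082396.4) and Zkscan8 (ENSMUSG00000063894.15) lie on the minus strand of chromosome 13. Zkscan5 (ENSMUSG00000055991.15) and Zscan25 (ENSMUSG00000070420.4) lie on the plus strand of chromosome 5. Zfp389 is annotated as a transcribed processed pseudogene, a copied transcript that is itself transcribed, and the other members are protein-coding. All coordinates are of the mouse build mm10 (GRCm38), with TSSs of GENCODE M21.

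The 6-mer that led among the merged peaks outside the members, CTAGAG on either strand, occurred in 1 merged peak of each of the 5 members. The 30 bases around the copy nearest to the peak summit are shown, because they hold the letters that all 5 promoters had in common and those in which they differed. Each is written from 5′ to 3′ in the direction of its gene, with CTAGAG in capitals. They lie at chr13:21453757-21453786 (minus strand) for Zscan26, chr13:21506575-21506604 (minus) for Zfp389, chr13:21531108-21531137 (minus) for Zkscan8, chr5:145204468-145204497 (plus) for Zkscan5 and chr5:145280403-145280432 (plus) for Zscan25.
Zscan26: tcccatcgtcCTAGAGcggagccggaaact
Zfp389: ctccggcatcCTAGAGagcaccaagcgtcc
Zkscan8: tccgagcttcCTAGAGagcttccggaagtg
Zkscan5: tccgggattcCTAGAGaggctgcggaagcg
Zscan25: tccgagcttcCTAGAGaggaaccggacgtc

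In each of the 5 promoters this copy stood outside the annotated transcripts, upstream of the outermost TSS and in the sense of the gene. Its nearest base was at −41 bp from that TSS in Zscan26, −56 bp in Zfp389, −2 bp in Zkscan8, −79 bp in Zkscan5 and −82 bp in Zscan25. A sense copy within 100 bp upstream of the outermost TSS was thus present in 5 of 5 members, and within 50 bp in 2 of 5. Among other protein-coding genes with a merged peak, 19 of 117 (16.2%) had a sense copy within 100 bp. Among protein-coding genes without a merged peak, 573 of 21817 (2.63%) had one. An antisense copy within the same span was present in 1 of 5 members, Zfp389, in 14 of these 117 (12.0%) and in 546 of these 21817 (2.5%). These shares describe the promoters and were looked at after the positions in the members were known.

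The shared letters went beyond the 6-mer. All 5 members had TC before it, so that each held TCCTAGAG, and 4 of the 5, all but Zscan26, held TCCTAGAGAG. Counted by peak, TCCTAGAG was in 5 and TCCTAGAGAG in 4 of the 9 merged member peaks. The member peaks were longer, with a median of 200 bp against 112 bp in the other merged peaks. On either strand, TCCTAGAG was in 8 of the 131 other merged peaks (6.11%) and in 0.836% of 54329 protein-coding TSSs with 100 bp on each side. Among sites of CTAGAG alone, it was at 8 of 52 in other peaks (15.4%) and at 8.71% of 3928 near TSSs without a peak. The longer TCCTAGAGAG was in 1 of the 131 other peaks (0.763%), at the zinc-finger gene Zfp113, and in 0.081% of the TSS windows. The other peaks with TCCTAGAG were at Zkscan17, Zfp41, Zfp35, Pars2, 5830454E08Rik, and between Bcs1l and Zfp142 and between Cct7 and Pradc1. Both strings contain CTAGAG, and both were read off the members, so their presence there is not a finding.

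Base by base, some positions of the members were also frequent at other bound sites and others were not. Counted from the first base of the 6-mer, position 8 was G in 5 of 5 members, in 90.4% of 52 sites in other merged peaks (the peaks of Zkscan3 apart) and in 27.2% of 3928 sites near TSSs with no merged summit within 5000 bp. Among the family genes without a peak, it was also G at Zkscan4, Zscan21 and Zscan30, and at the main Zkscan3 peak it was A. The T at position −2 was in 5 of 5 members, 17.3% of the sites in other peaks and 22.6% of those without a peak, and it was also at Zkscan1, Zkscan4, Zscan21 and Zscan30, family genes without a peak. The C at position −1 was in 5 of 5 members, against 50.0% and 33.3%. All 5 members also shared the C at position −8, against 36.5% and 27.9%, and the G at position 15, against 36.5% and 29.7%.

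The letters CGGAA, which form part of the recognition sequence of ETS factors, followed the 6-mer on the same strand within 14 bases in 3 of the 5 members, Zscan26, Zkscan8 and Zkscan5. They did so in 3 of the 52 sites in other peaks (5.77%) and in 49 of the 3928 sites at promoters without a peak (1.25%). Only this strand was searched, and the letters were picked after the members had been read. They also followed the 6-mer at Zkscan3, which has a peak and is not among the 52, and at Zkscan1 and Zkscan4, which have none. With no tie to CTAGAG, and on either strand, CGGAAG was within 50 bp of the summit in 34 of the 131 other merged peaks (26.0%) and in 10.3% of protein-coding TSS windows of that length.

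**Figure D1:**
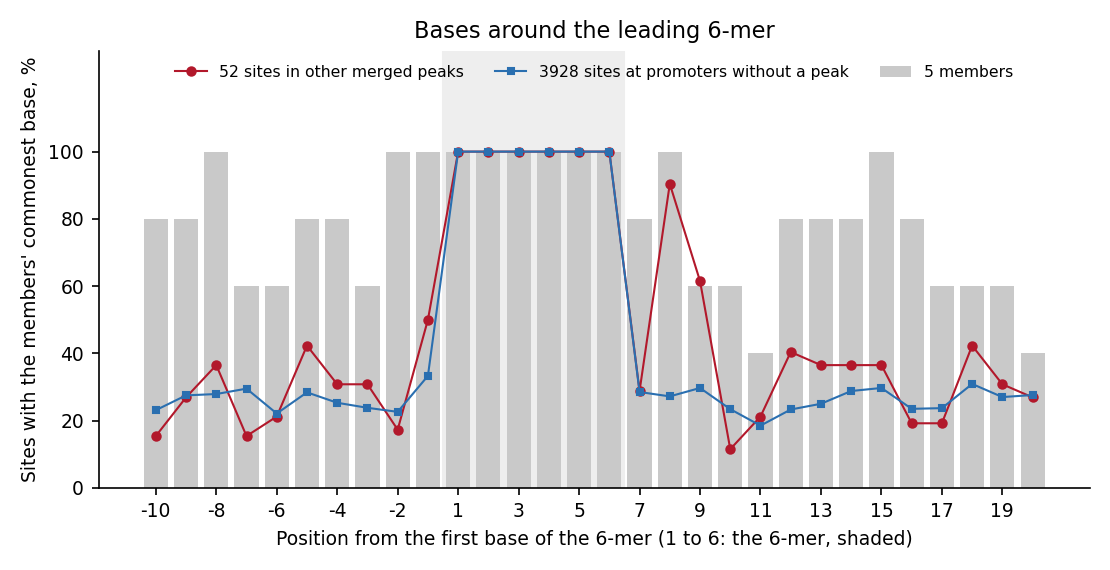
Share of sites that carry the commonest base of the 5 members at each position around the leading 6-mer (x axis, bases from its first base, y axis, percent of sites). Grey bars are the 5 members, high by construction, red points 52 sites in other merged peaks and blue squares 3928 sites at promoters without a peak, and at position 8 the red point stands at 90.4% while the blue stands at 27.2%.

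Zkscan8 and Zscan25, on different chromosomes, shared the longest identical stretch. It was 22 bases long, and its copies at chr13:21531120-21531141 (minus strand) and chr5:145280399-145280420 (plus strand) were the only 2 occurrences in the genome. Among 9685 pairs of merged peaks the median longest shared run was 8 bases, and 1 pair, this one, reached 22. The run is shown because it includes the 6-mer, in capitals.
Zkscan8 and Zscan25: gacctccgagcttcCTAGAGag
The next longest run between members, of 13 bases, joined Zkscan8 and Zkscan5, and Zkscan5 and Zscan25 shared 12. The median run over 31 pairs of member peaks was 8, as over all pairs.

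A second 6-mer, ATAGAG, came next in the ranking of peaks outside the members. It preceded CTAGAG on the same strand inside the peaks of Zkscan8, at a spacing of 26 bp from start to start, and of Zscan25, at 36 bp. Zkscan3, which is not a member, had the same order at 18 bp inside its stronger peak. Of the Zkscan8 and Zscan25 pairs, that of Zscan25 is printed because it lies wholly outside transcripts (chr5:145280372-145280423, plus strand), with both 6-mers in capitals.
Zscan25: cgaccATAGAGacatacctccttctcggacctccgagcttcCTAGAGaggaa
In Zscan26 the nearest ATAGAG stood 121 bp from CTAGAG on the same strand, outside the peak. In Zkscan5 it stood 122 bp from the CTAGAG shown, on the opposite strand, and 229 bp before the other CTAGAG of that peak on the same strand, all inside the peak, and in Zfp389 no pair was listed. The members were thus uniform in CTAGAG and differed in whether ATAGAG lay nearby.

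The peaks rest on few reads. Solved totals were 10.2 M reads (M, mega) in replicate 1, 10.5 M in replicate 2 and 20.6 M in the merged list, with a control of 36.0 M behind each list. These totals rest on fragments of 50 bp, the length that the background values fit, although the authors' stated MACS2 settings give a longer extension. Summit pileups, the number of reads that overlap the summit, had a median of 12 in the merged list and 9 in each replicate. Each pileup below has an exact 95% Poisson interval, which covers counting error alone, and the labels call the replicates biological without naming separate clones.

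Fold enrichment is the treatment pileup over the parental background at the summit, after 1 is added to both. Over the 9 merged peaks of the members the lowest value was 6.36, the median 10.8 and the highest 12.2, beside a median of 7.61 over all 140 merged peaks. At 5 of the 9 summits (55.6%) the background lay at its floor, which means 0 control reads in the window around the summit, and at the other 4 it stood at 1 control read. Of all merged summits 42 (30.0%) were at the floor. The members were picked with these values known, so nothing is read from the difference.

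Zscan26 had a single peak (chr13:21453671-21453874), whose summit lay in a UTR at 24 bp downstream of the nearest TSS. Its fold enrichment was 11.0 in the merged list, 9.42 in replicate 1 and 8.59 in replicate 2 (mean of the replicates 9.0 ± 0.587, SD, n = 2). The pileups were 16 reads in the merged list (95% interval 9.15 to 26.0), 11 in replicate 1 and 10 in replicate 2. The replicate 2 peak was the narrowest of the 3, at 68 bp against 125 bp in replicate 1 and 204 bp in the merged list, and it ended before the CTAGAG.

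Zfp389 had 2 merged peaks, 52 bp apart. The one that spans the TSS (chr13:21506475-21506674) had a fold enrichment of 12.2 in the merged list, the highest of the members there but not in either replicate, 8.93 in replicate 1 and 9.37 in replicate 2 (mean 9.15 ± 0.311, SD, n = 2). It held 18 reads at the merged summit (95% interval 10.7 to 28.4), 13 in replicate 1 and 11 in replicate 2. The other peak (chr13:21506253-21506422) lay in an exon of the pseudogene with its summit 222 bp downstream of the TSS.

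This exonic peak had the lowest fold enrichment in each replicate among the 7 member peaks found in both. Its fold enrichment was 10.8 in the merged list, 7.56 in replicate 1 and 6.40 in replicate 2 (mean 6.98 ± 0.82, SD, n = 2), although its pileups of 16, 13 and 11 reads were among the higher ones. Its background stood at 1 control read at the merged summit and at 3 control reads at both replicate summits, which lay 99 bp and 85 bp from the merged one. No other member summit in any list had 3 control reads.

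Zkscan8 also had 2 merged peaks, 88 bp apart. The upstream one spans the outermost TSS (chr13:21531017-21531348), with a fold enrichment of 10.8 in the merged list, 8.57 in replicate 1 and 8.21 in replicate 2 (mean 8.39 ± 0.255, SD, n = 2) and pileups of 16, 10 and 12 reads. Replicate 2 resolved it into 2 peaks, of which the weaker (chr13:21531297-21531347) had a fold enrichment of 6.97 and 8 reads. The downstream peak (chr13:21530803-21530928) had its summit in an intron, with a fold enrichment of 9.66 in the merged list, 8.29 in replicate 1 and 7.81 in replicate 2 (mean 8.05 ± 0.339, SD, n = 2).

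Zkscan5 had the widest member peak, a single region of 469 bp that ended just past the outermost TSS (chr5:145204097-145204565), beside a median width of 200 bp over the members and 122.5 bp over all merged peaks. Its fold enrichment was 11.0 in the merged list, 9.42 in replicate 1 and 10.1 in replicate 2 (mean 9.76 ± 0.481, SD, n = 2), on pileups of 16, 11 and 12 reads. The replicate peaks were 263 and 303 bp wide, and the summits of the replicates stood 86 bp apart. In the merged list it was the only member peak whose summit lay more than 100 bp upstream of the nearest TSS, at −172 bp.

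Zscan25 had 3 merged peaks in a row from the promoter into the first part of the gene, with gaps of 59 and 79 bp. The first spans the TSS (chr5:145280349-145280629), with a fold enrichment of 8.90 in the merged list, 7.79 in replicate 1 and 7.74 in replicate 2 (mean 7.77 ± 0.0354, SD, n = 2). The second (chr5:145280689-145280818) had a fold enrichment of 6.36 in the merged list and 5.45 in replicate 1, on 9 and 6 reads, and overlapped no replicate 2 peak. The third (chr5:145280898-145281031) had 7.73 in the merged list and 7.81 in replicate 2, on 11 and 9 reads, and overlapped no replicate 1 peak.

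Each intronic Zscan25 peak thus overlapped a called peak of 1 replicate, although both had a peak of the other replicate within 150 bp. A peak missing from a list says only that it was not called there. The third was the member peak farthest inside the window, with its near edge 398 bp from the TSS, and a window of 1000 bp brought in no further merged peak. Neither held CTAGAG or ATAGAG.

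**Figure D2:**
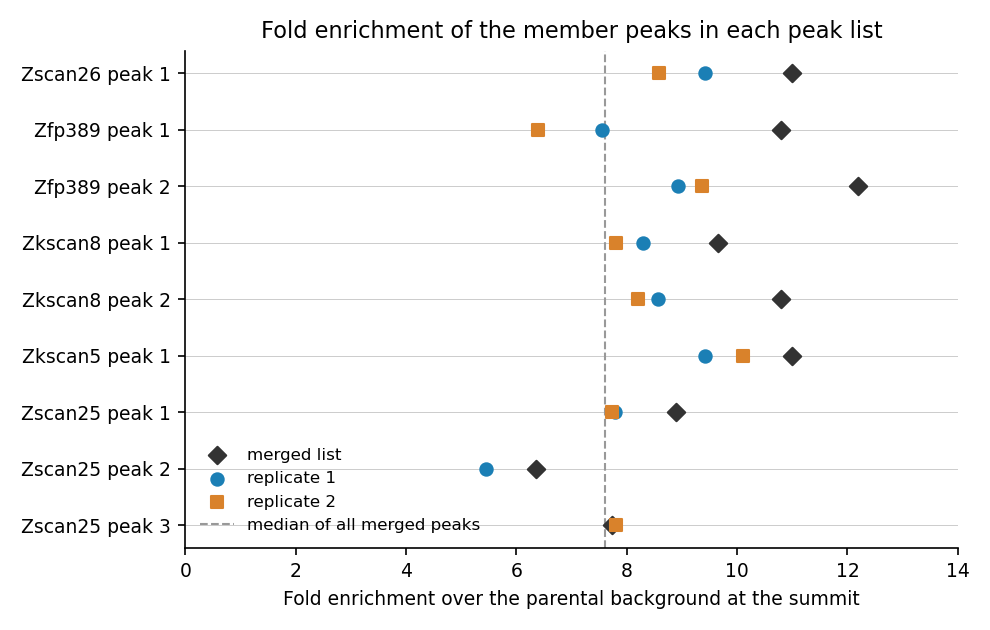
Fold enrichment at the summit (x axis, ratio with 1 added to pileup and background) of the 9 merged member peaks (y axis) in the merged list (diamonds), replicate 1 (circles) and replicate 2 (squares), with the median of all merged peaks as a dashed line at 7.61. The merged value is above both replicate values at all 7 peaks found in both, and Zscan25 peak 2 and peak 3 each lack a replicate. The merged list has more reads, and with 1 added to each side more reads give a higher ratio, so nothing is read from that order.

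Of the 9 merged member peaks, 7 overlapped a peak of both replicates (77.8%), where 54 of all 140 merged peaks did (38.6%). The 7 include at least 1 peak of every member. At each of the 7 the merged pileup was below the sum of the replicate pileups, as at Zscan26 with 16 reads against 21. Each list has its own summit, so the pileups that are summed need not lie at the merged position, and the cause of the gap was not tested. Since the genes were chosen with the peak lists known, nothing is read from the larger share.

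The replicates were compared at the summit with an exact conditional binomial test, two-sided, which asks whether their pileups differ by more than the ratio of their reads (0.974, replicate 1 over replicate 2). Each pileup was taken at that replicate's own summit, so the compared counts are local maxima that can lie at different positions. Over the 54 peaks found in both replicates, 0 passed an adjusted p of 0.05 (0.0%), and 0 had an unadjusted p under 0.05. Peaks called in 1 replicate alone were not in the test, which can leave out those that differ most, and the low pileups give it little power, so nothing is read from the lack of calls. At the 7 member peaks the ratio of replicate 1 to replicate 2, corrected for reads, ran from 0.855 at the upstream Zkscan8 peak to 1.37 at the downstream one, with a median of 1.13 beside 1.03 over all 54. Replicate 1 was higher in 5 and replicate 2 in 2 of them. The lowest exact p at a member was 0.519 (adjusted 1.0), and the 95% intervals of the ratios reached from 0.331 to 3.68, so differences of up to about that size were not detectable at this depth.

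**Figure D3:**
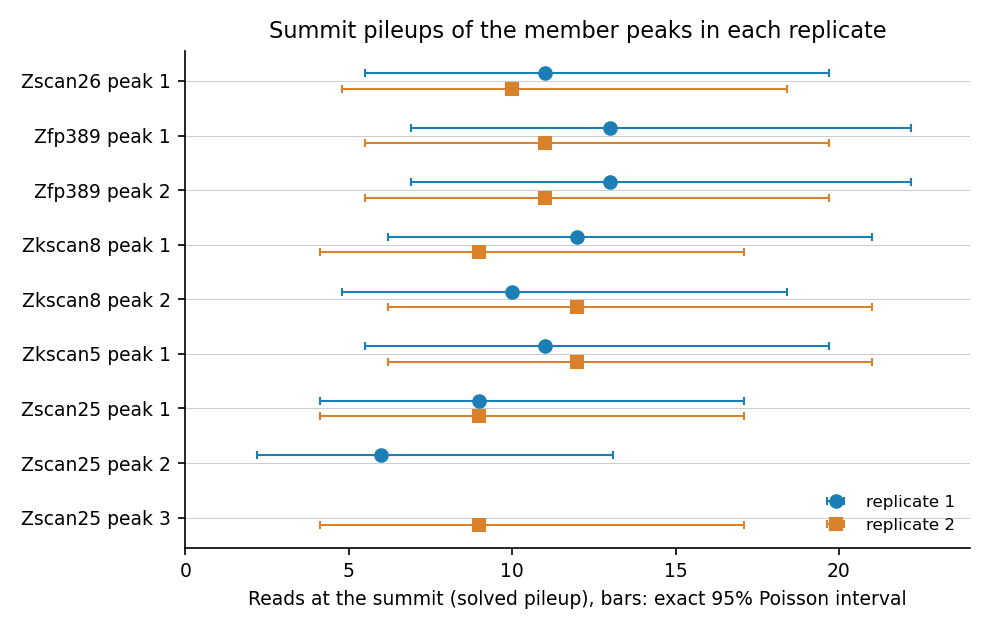
Reads at the summit (x axis) of each member peak (y axis) in replicate 1 (circles) and replicate 2 (squares), with exact 95% Poisson intervals as bars. The intervals of the replicates overlap at all 7 peaks found in both, and the points lie between 6 and 13 reads.

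Between the replicates the summits of the 7 shared member peaks were 11 to 124 bp apart, closest at the first Zscan25 peak and farthest at the upstream Zkscan8 peak. In the merged list 4 summits lay upstream and 5 downstream of the nearest TSS, at a median distance of 172 bp, and 5 of the 9 peaks overlapped a TSS. Without replicate 2, in the list of replicate 1, the median distance was 77.5 bp. The 5 merged peaks that overlapped a TSS, 1 for each member, were those with CTAGAG.

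The 6-mer lay within 11.5 to 90.5 bp of the merged summit, measured to its centre. Replicate 1 peaks covered it in 5 of 5 members and replicate 2 peaks in 3 of 5, all but Zscan26 and Zscan25. Within 50 bp of the summit, 2 of the 9 member peaks held CTAGAG (22.2%), against 40 of 131 other merged peaks (30.5%) and 4.42% of protein-coding TSS windows of the same length. With 100 bp on each side the counts were 5 of 9 members (55.6%), 64 of 131 others (48.9%) and 8.87% of TSS windows. For ATAGAG the counts with 50 bp were 2 of 9 (22.2%) and 36 of 131 (27.5%), against 2.53% of TSS windows.

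**Figure D4:**
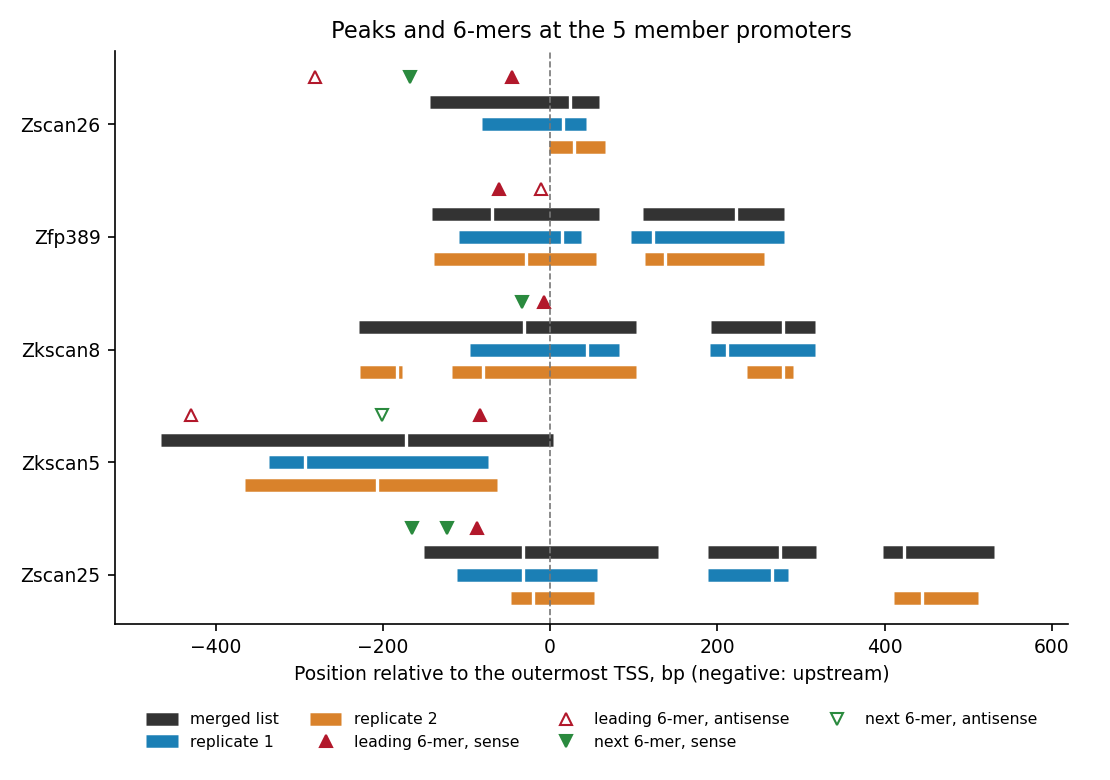
Peaks of the 5 members in the merged list (black), replicate 1 (blue) and replicate 2 (orange) by distance from the outermost TSS (x axis, bp, negative upstream in the direction of the gene), with white ticks at the summits, red triangles for CTAGAG and green triangles for ATAGAG, filled where they read in the gene's sense. A filled red triangle stands between −100 and 0 bp in all 5 rows, over a merged peak.

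Peaks were the exception among genes of these names. Of 33 annotated Zscan and Zkscan genes, 7 had a merged peak (21.2%), beside 0.552% of all protein-coding genes. The 7, all protein-coding, were 4 of the members, Zkscan3, Zscan12 and Zkscan17. Of the 33 entries 31 were protein-coding, and Zkscan7 was entered more than once. The list holds genes picked for their peaks, so the share is a description. Replicate 1 alone gave 6 of the 33 and replicate 2 gave 5. Among 13 other annotated genes with a SCAN domain, 1 had a peak (7.69%), Zfp445. Of the 34 genes within 100 kb of the members, 7 had a merged peak (20.6%), which were the members themselves, Zkscan3 and Zscan12.

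None of the family peaks outside the members was found in both replicates. Zkscan3, the neighbour of Zscan26, had a merged peak at chr13:21402660-21402845 with a fold enrichment of 10.3 and 15 reads, with 8.64 in replicate 1, and a weaker one at chr13:21402525-21402595 with 5.72 and 8 reads that overlapped a peak in neither replicate. Zscan12 (chr13:21362711-21362821) had a fold enrichment of 4.78 in the merged list and 6.38 in replicate 1. Zkscan17 (chr11:59506204-59506334), in a window shared with 4933439C10Rik, had 8.26 in the merged list and 6.97 in replicate 2, and Zfp445 (chr9:122865927-122866116) had 7.73 and, in replicate 1, 6.28.

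Related sequence also occurred at family promoters without a peak. Of 26 Zscan and Zkscan genes with no merged peak, 4 had a sense CTAGAG within 100 bp upstream of the outermost TSS (15.4%), namely Zkscan1, Zkscan4, Zscan21 and Zscan30, and each of these 4 also held TCCTAGAG. None of them held TCCTAGAGAG. The sites of Zkscan3 (chr13:21402747-21402776, minus strand) and Zscan12 (chr13:21362749-21362778, plus), which have a peak, and of Zkscan1 (chr5:138085027-138085056, plus), Zkscan4 (chr13:21478816-21478845, plus) and Zscan21 (chr5:138116867-138116896, plus), which have none, are set out for comparison with those of the members.
Zkscan3: tcgctggtgcCTAGAGaagccggaagtgct
Zscan12: ccgtggctccCTAGAGtggctctgggagca
Zkscan1: tcccgtgttcCTAGAGgagacccggaagct
Zkscan4: gaagcgcatcCTAGAGggcgccggaagtgg
Zscan21: gctcggattcCTAGAGgggcggctgctccc
Zkscan3 and Zscan12 thus have a peak without TCCTAGAG, and Zkscan1, Zkscan4 and Zscan21 have TCCTAGAG without a peak.

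The merged peaks outside the members whose fold enrichment in the 3 lists was most like theirs were named by a distance on the log2 scale from the mean of the 7 member peaks found in both replicates. Tab1 was the closest (distance 0.07, fold enrichment 10.3, 8.64 and 8.59 in the merged list, replicate 1 and replicate 2), followed by Zfp113 (0.16), the peak of BC055324 and Mettl18 (0.19), Eef1akmt2 (0.23) and Gga1 (0.23). The members' own distances ran from 0.03 to 0.41, and 15 of the 47 other peaks found in both replicates lay within that range. Peaks at genes outside the zinc-finger families thus had values within the range of the members.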

How the data were processed

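Mouse embryonic stem cells were profiled by anti-V5 Cut&Run in 2 AID-Zfp574 samples and 2 OsTir1 parental samples. Per the labels, the authors aligned reads with Bowtie 0.12.9 to mm10 and called peaks with MACS2 2.1.2.1 over the parental line, once per replicate and once on merged replicates. The deposited lists hold, for each peak, a fold enrichment (a ratio at the summit, 1 added to each side), a −log10 p-value, a −log10 q-value, a score derived from it and a summit offset. Uniquely aligned reads were kept, so sequence repeated over the length of a read gives no signal, and sites under the caller's threshold are not listed.

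Treatment pileup and background were solved from fold and −log10 p with the Poisson upper tail. All pileups came out within 0.05 reads of a whole number (100.0% in each list). Depths assume 50-bp fragments. Replicate pileups were tested with an exact conditional binomial test and Benjamini-Hochberg adjustment over all shared peaks. Overlap meant 1 shared bp. TSSs were those of GENCODE M21, and sequences came from the GRCm38 RefSeq assembly. The 6-mers were ranked on the 131 peaks outside the members against TSS windows. The steps were tested on simulated data. Python 3.11.15, scipy 1.17.1, statsmodels 0.14.6, pysam 0.24.0 and samtools 1.23.1 were used.

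Named were all members with every peak, any other gene of the fixed lists with a peak, and the 5 peaks closest to the members in fold. The members and lists were chosen with earlier results of these data known. Alternatives were other TSS windows, overlap rules, stricter peaks, motif windows and each replicate alone.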

Additional observations from a re-analysis of the deposited data

How the results depend on the processing

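No paired analysis was possible because peaks of the parental line were not analysed here, and so the numbers shared by the groups pair nothing. Of 38 settings tried for the results on the members and the family, 13 gave the reported value. Another 11 moved it by less than the limit set for a change, and 14 moved it beyond that limit. The number of merged member peaks fell from 9 to 5 with a TSS window of 100 bp, and to 5 when peaks within 150 bp were joined, which leaves 1 region for each member. Those found in both replicates came to 4 of 9 under an overlap of at least 50% of both peaks and to 9 of 9 where a replicate peak within 150 bp sufficed. The share of member peaks with either of the 2 leading 6-mers, which were ranked anew in each setting, 33.3% in the 50-bp windows, was 55.6% with 100 bp on each side and over whole peaks, 44.4% against windows 1000 bp from the same summits, where CCCGCC ranked second, and 22.2% with 6-mers from peaks of both replicates, where CATAGA ranked second. The median summit distance was 121 bp with −log10 q of at least 5. With no pseudocount the median fold enrichment was 27.9 in place of 10.8, since 1 is then no longer added to a background under 1 read. In a single replicate's list, member peaks numbered 8 to 9, family genes with a peak 5 to 6, the share with either leading 6-mer was 22.2% to 25.0% (with AGAGCG second in replicate 1), the median summit distance 77.5 to 137 bp and the median fold enrichment 7.81 to 8.43. The number of peaks that differed between replicates was 0 under equal totals, summed pileups and stricter peaks, with 0 at an unadjusted p under 0.05 in the exact test each time. The fold enrichment of the 7 member peaks found in both replicates moved by more than their replicate SD in 14 of 14 single-replicate values. A single replicate has fewer reads, and with 1 added to each side fewer reads give a lower ratio, so nothing is read from this count. The depth of these peaks, 9 to 18 reads at a summit, leaves their order unresolved. The span upstream of the TSS was varied after seeing the data, with 2 of 5 members holding a sense CTAGAG within 50 bp and 5 within 200 bp.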
